A study of Mus musculus with 6 samples.

Results

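The genes described here encode the subunits of the proteasome, its immunoproteasome subunits, its activators and inhibitor, and the chaperones that build it. They were chosen by name, as the symbols made of Psm, a letter from a to g and a number, with pseudogene symbols left out. The rule found 50 of the 37043 gene symbols in the count table. Of these, 49 belong to the proteasome: 7 subunits of the alpha ring, 7 of the constitutive beta ring, 3 immunosubunits, 2 core subunits known from testis or thymus, 9 subunits of the base, 8 of the lid, 5 activators, 1 inhibitor and 7 assembly chaperones. Psme2b, counted here with the activators, is a retrocopy of Psme2. The remaining symbol, Psmc3ip, names a cofactor of meiotic recombination that shares only its first letters with the family.

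Transcript levels were measured by bulk RNA-seq in bone marrow-derived basophils (BMBAs), which are basophils grown from mouse bone marrow in culture. Cells of C57BL/6J WT mice, with no genetic change in either group, were cultured for 7 days with 0.3 ng/mL of a cytokine that the methods of the study name as IL-3, and cells bearing CD49b were then enriched on beads. They were next treated for 6 h with 10 ng/mL IL-3 in 3 libraries or with PBS in the other 3, to ask what IL-3 does to the basophil transcriptome. The sources used here do not say if the medium of the PBS cultures still held any IL-3. The cells were therefore products of IL-3 culture in both groups and were enriched with beads rather than sorted to purity. They do not say either how the 3 cultures of a group relate to separate mice, so the p-values measure the spread between these cultures.

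The proteasome is the protease that degrades ubiquitin-tagged proteins in the cytosol and nucleus. Its core particle is a barrel of alpha and beta rings in which 3 kinds of beta subunit cut the peptide chain, and its regulatory particle, made of a base and a lid, binds ubiquitin, unfolds the substrate and feeds it into the barrel. In immune cells and under interferon gamma, the immunosubunits Psmb8, Psmb9 and Psmb10 take the places of the catalytic subunits Psmb5, Psmb6 and Psmb7, and the peptides made by such cores favour loading onto MHC class I molecules.

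Sequence upstream of or at the annotated starts of the immunosubunits, of 2 of the subunits they replace and of the activator Psme3 is shown first, because the largest falls and the largest rise of the family were found among these genes. The stretches are on the gene's strand, 5′ to 3′, from the promoter windows of RefSeq on GRCm38.p6, which run from 250 bases before to 50 bases after an annotated start. Capitals mark matches to 1 of 4 short motifs. For Psmb8 and Psmb9, whose windows lay in exons of longer annotated transcripts, 29 bases around the match are given, of which the last 9 of Psmb9 lie from its start onward, and for the others the bases before the start that lay in no annotated exon.
Psmb8 (chr17:34198088-34198116, plus strand): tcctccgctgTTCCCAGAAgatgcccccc
Psmb9 (chr17:34187322-34187350, minus strand): gcgcagccgctgATTGGaaagccgagccc
Psmb10 (chr8:105938445-105938642, minus strand): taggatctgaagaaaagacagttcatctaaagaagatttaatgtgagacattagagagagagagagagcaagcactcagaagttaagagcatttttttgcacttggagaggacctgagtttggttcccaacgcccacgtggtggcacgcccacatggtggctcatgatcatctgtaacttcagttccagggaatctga
Psmb5 (chr14:54618023-54618245, minus strand): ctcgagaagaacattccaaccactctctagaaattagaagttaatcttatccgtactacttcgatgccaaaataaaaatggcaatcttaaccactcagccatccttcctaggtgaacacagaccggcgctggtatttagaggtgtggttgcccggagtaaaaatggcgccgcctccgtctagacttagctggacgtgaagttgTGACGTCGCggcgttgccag
Psmb6 (chr11:70525107-70525356, plus strand): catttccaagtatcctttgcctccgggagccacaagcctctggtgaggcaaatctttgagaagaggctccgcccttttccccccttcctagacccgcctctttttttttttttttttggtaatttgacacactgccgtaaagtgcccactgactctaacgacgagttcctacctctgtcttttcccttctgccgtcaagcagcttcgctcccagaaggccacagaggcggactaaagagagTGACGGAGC
Psme3 (chr11:101315963-101316212, plus strand): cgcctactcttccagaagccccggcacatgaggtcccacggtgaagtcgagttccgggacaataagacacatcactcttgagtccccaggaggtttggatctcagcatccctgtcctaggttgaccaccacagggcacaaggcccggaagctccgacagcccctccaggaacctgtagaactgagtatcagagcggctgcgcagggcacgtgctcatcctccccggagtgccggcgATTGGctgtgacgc

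The motifs searched, on both strands, were the core of the antioxidant response element (TGACNNNGC), the core of the interferon-stimulated response element (GAAA, any 2 bases and GAAA), the core of a STAT site (TTCNNNGAA) and the CCAAT box. Of the 50 symbols, 42 had at least 1 window, and 44 windows belonged to proteasome genes. The antioxidant core stood in 6 of these 44, or 13.6%, against 12.4% of all 32851 windows, and the 6 included Psmb5, 47 bases before its start, and Psmb6, 9 bases before. The interferon core stood in 5 of the 44, those of Psmb3, Psmd4, Psmd9, Psme1 and Psmg4, which is 11.4% against 3.44% of all windows. None of the immunosubunit windows held either of these cores. The STAT core stood in 3, or 6.82% against 8.30%, and 1 of the 3 was the window of Psmb8, where TTCCCAGAA began 97 bases before the start. The CCAAT box stood in 14, or 31.8% against 37.4%, among them Psmb9 and Psme3. The window of Psmb10 matched none of the 4. A match describes these letters only, and its absence says nothing of a factor's binding.

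Library totals lay between 10537540 and 13999287 counts, and the proteasome genes took 0.321% to 0.358% of each library. Expression is given as CPM, which are counts relative to the size of the library after TMM scaling (the trimmed mean of M values of edgeR), with mean ± SD over 3 libraries. A gene was called higher or lower where the quasi-likelihood test of edgeR, adjusted over all 16675 genes tested, gave a p below 0.05. Over all of these genes 38.2% were called, 18.0% higher and 20.2% lower. Scaling by library totals in place of TMM moved the median log2 fold change of all genes from -0.003 to -0.17, and this shift carried over to every proteasome gene.

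All 3 immunosubunits were lower with IL-3 and the activator Psme3 was higher, while the other members moved by less. Of the 48 proteasome genes tested, 15 were called higher, 5 were called lower and 28 were not called, and their median log2 fold change was 0.11. All 3 IL-3 libraries lay above all 3 PBS libraries in 18 members, where 23.8% of all genes tested did so, and below them in 5, where 24.4% of all genes did. The calls below were the 3 immunosubunits, the catalytic subunit Psmb6 and the chaperone Psmd9. Most of the rises were small, and they depended on how the libraries were scaled. With library totals 1 member, Psme3, remained higher and 11 were lower, with a median of -0.06, although the median of the members relative to that of all genes was 0.11 under either scaling. Of all genes tested, 10.2% were called higher and 30.2% lower with library totals. The number of members called higher fell to 9 without PBS replicate 2 and to 8 without IL-3 replicate 2. Over all 13 alternative fits 1 of the 15 rises and 4 of the 5 falls kept their call. These shares are not alike, because the fit with library totals lowered the value of every member and so could end rises but hardly falls. Psma7, Psmc4, Psmc5, Psmd11 and Psmd12 lost their call in that fit alone.

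**Figure D1:**
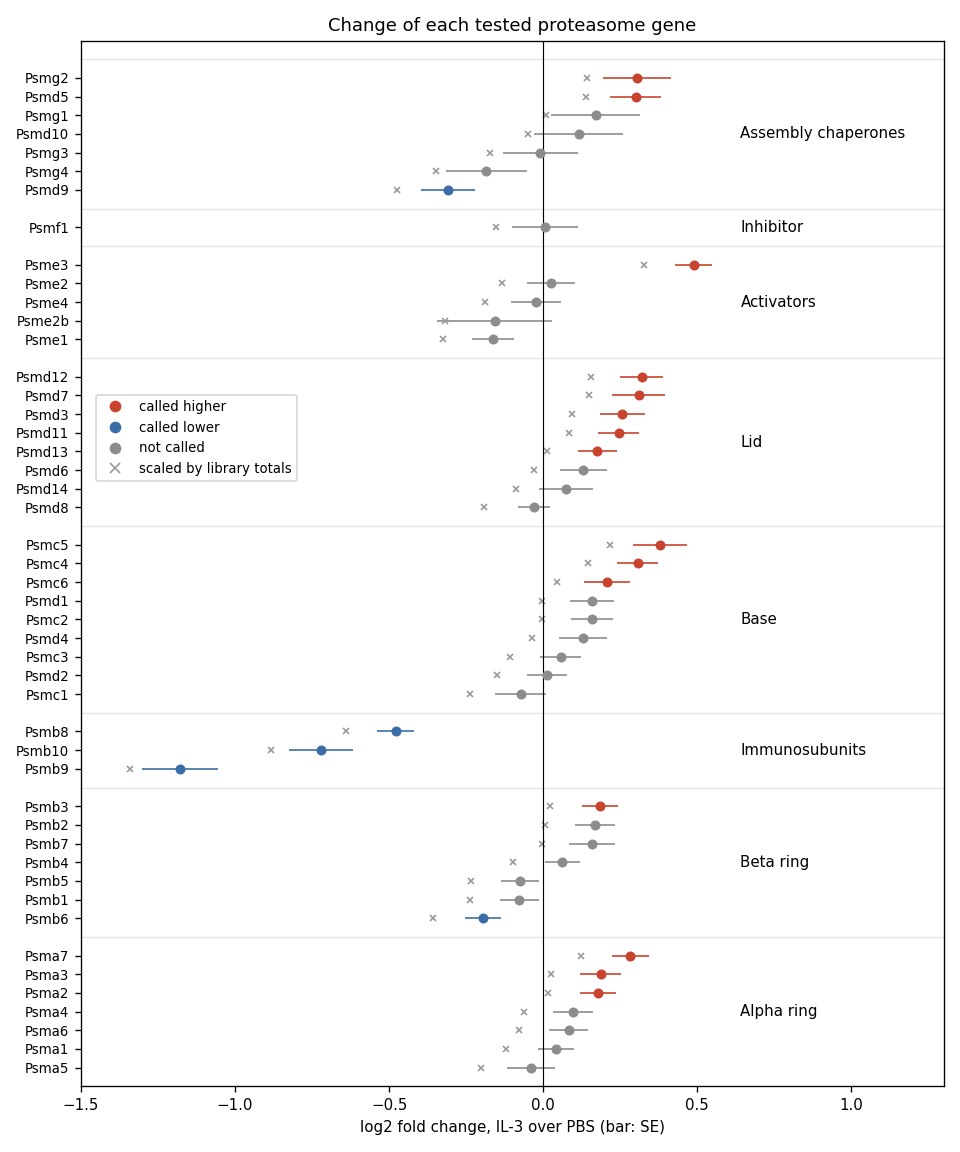
Log2 fold change (IL-3 over PBS, x axis) of the 47 tested proteasome genes that belong to a group of roles, with bars for the SE of the edgeR fit, colour for the call and crosses for the value with library totals. The 3 immunosubunits lie farthest to the left, at -0.48 to -1.18, Psme3 lies farthest to the right at 0.49, and the crosses of several genes with small positive values lie at or below 0.

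The immunosubunits fell together. Psmb8, the immunosubunit with chymotrypsin-like activity (ENSMUSG00000024338, chromosome 17, 34197721 to 34201454, GRCm38), was at 103, 96.4 and 95.8 CPM in the PBS libraries and at 71.0, 72.0 and 69.0 CPM in the IL-3 libraries. The groups did not overlap. Psmb8 fell by 0.48 on the log2 scale (SE 0.0612, adjusted p = 1.23e-05, edgeR), from 98.4 ± 3.92 to 70.6 ± 1.53 CPM. Of the 50-base stretches in its transcripts 11.9% occur under other symbols, chiefly the antisense gene Gm20496, which had 5 to 10 counts in a library.

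Psmb9, which stands in the place of the caspase-like subunit (ENSMUSG00000096727, chromosome 17, 34181987 to 34187764), had the largest change of the family. It was at 35.8, 26.7 and 29.1 CPM with PBS and at 13.3, 13.7 and 13.4 CPM with IL-3, so that even its lowest PBS library was well above every IL-3 library. The log2 fold change was -1.18 (SE 0.122, adjusted p = 1.31e-06, edgeR), which leaves 0.442 of the PBS level. The highest PBS value came from replicate 1, and the call held without it.

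Psmb10, the immunosubunit that replaces the trypsin-like subunit (ENSMUSG00000031897, chromosome 8, 105935735 to 105938444), lies on another chromosome than the other two. Its PBS libraries were at 45.5, 43.7 and 36.8 CPM and its IL-3 libraries at 28.9, 23.7 and 24.0 CPM. These did not overlap, and the log2 fold change was -0.72 (SE 0.105, adjusted p = 4.88e-05, edgeR). Summed over the 3 immunosubunits, the level went from 171 ± 11.8 to 110 ± 3.42 CPM. The median of the 3 was -0.72, or -0.88 with library totals, and each was called lower under every alternative run. In bulk libraries, fewer cells that express a gene and less RNA of it in each cell cannot be told apart.

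The catalytic subunits that the immunosubunits replace did not share these falls in size. Psmb5, which has the chymotrypsin-like site, was at 122, 127 and 124 CPM with PBS and at 127, 113 and 114 CPM with IL-3. The groups overlapped and no change was called (log2 fold change -0.07, adjusted p = 0.385, edgeR), but Psmb5 was called lower with library totals (-0.24, adjusted p = 0.0112). Of the 50-base stretches in Psmb5 transcripts, 54.1% also occur in transcripts of other symbols, chiefly Gm3375 and Mir686, so its level depends on how reads were divided between the copies.

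Psmb6, the caspase-like subunit, was at 149, 142 and 139 CPM with PBS and at 127, 120 and 128 CPM with IL-3. The IL-3 libraries all lay below the PBS libraries, and the log2 fold change was -0.20 (adjusted p = 0.0139, edgeR). This call was lost without PBS replicate 1 (-0.17, adjusted p = 0.0627) and without IL-3 replicate 2 (-0.17, adjusted p = 0.0725). Psmb7, the trypsin-like subunit, was at 50.1, 54.0 and 46.7 CPM with PBS and at 57.0, 55.4 and 56.0 CPM with IL-3. Its IL-3 libraries were all higher, by 0.16 on the log2 scale, but no change was called (adjusted p = 0.108, edgeR), and the value was -0.003 with library totals.

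**Figure D2:**
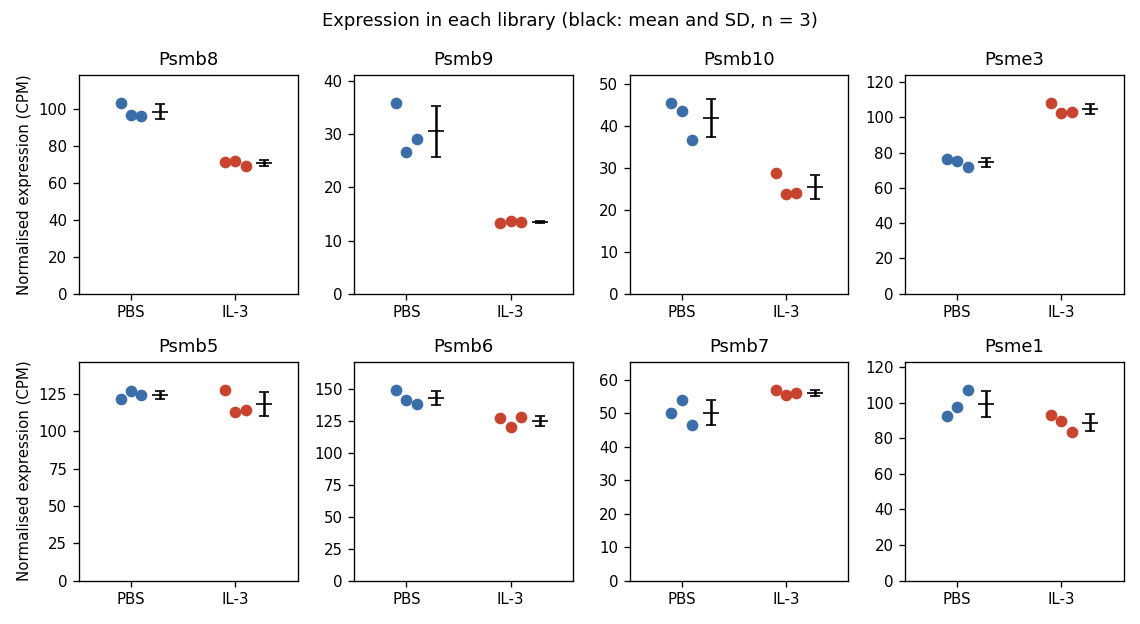
Normalised expression (CPM, y axis from 0) of 8 proteasome genes in each of the 3 PBS and 3 IL-3 libraries, with black marks for the mean and SD. In Psmb8, Psmb9 and Psmb10 every IL-3 point lies below every PBS point, in Psme3 every IL-3 point lies above, and in Psmb5 and Psme1 the points of both groups overlap.

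To set each immunosubunit against the subunit whose place it takes, their CPM was divided within each library, a ratio that does not depend on how libraries are scaled to one another. It compares counts of transcripts of different length and is no share of assembled cores. Psmb8 to Psmb5 stood at 0.845, 0.761 and 0.773 with PBS and at 0.557, 0.638 and 0.605 with IL-3. Psmb9 to Psmb6 stood at 0.240, 0.189 and 0.210 with PBS and at 0.105, 0.114 and 0.105 with IL-3. For Psmb10 to Psmb7 the PBS ratios were 0.908, 0.808 and 0.789 and the IL-3 ratios 0.508, 0.429 and 0.429.

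All 3 ratios were lower in every IL-3 library than in any PBS library. The mean log2 ratio differed by -0.40 for Psmb8, by -0.97 for Psmb9 and by -0.88 for Psmb10. An exact two-sided permutation test gave p = 0.10 for each, also after adjustment over the 3 ratios, which is the smallest p that 3 libraries against 3 allow. The smallest and largest differences over the alternatives were -0.45 and -0.35 for Psmb8, -1.06 and -0.88 for Psmb9, and -0.96 and -0.82 for Psmb10. With the counts of the Psmb5 copies added to Psmb5 the first difference was -0.40.

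**Figure D3:**
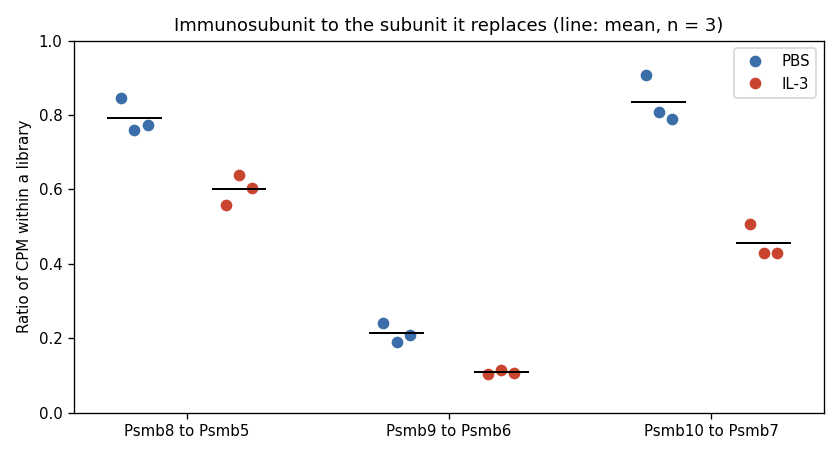
Ratio of the CPM of an immunosubunit to that of the constitutive subunit it replaces (y axis, from 0), as a point for each library and a line for the mean of 3 libraries. In each pair the 3 IL-3 points lie below the 3 PBS points, and the Psmb9 pair is the lowest, at 0.189 to 0.240 with PBS and 0.105 to 0.114 with IL-3.

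The genes next to the immunosubunits on chromosome 17 were read after their values had been seen. Psmb8 and Psmb9 lie in the class II region of the MHC, each beside a gene of the transporter that carries proteasome products into the endoplasmic reticulum, Tap1 and Tap2. The RefSeq start of Psmb9, at position 34187330, lies 223 bases from the annotated start of Tap1, which runs on the other strand. Within 50000 bases of the pair, 8 protein-coding genes were tested, the pair included. Tap1 went from 31.7 ± 4.31 to 25.4 ± 1.01 CPM (log2 fold change -0.32, adjusted p = 0.0269) and Tap2 from 82.9 ± 10.5 to 63.2 ± 6.18 CPM (-0.39, adjusted p = 0.00278), and both were called lower by edgeR. The class II chaperone genes H2-DMa and H2-DMb1 were also lower (-0.69 and -0.33), H2-DMb2 was not called (-0.14), and H2-Ob was higher (0.65). Genes of this stretch thus went both ways, and Psmb9 had the lowest log2 fold change of the 8. Without a single library, the call of Tap1 was lost for PBS replicate 1 or 3 and IL-3 replicate 1 or 3 (adjusted p = 0.0795, 0.126, 0.0777 and 0.0604), and that of H2-DMb1 for replicate 1 or 2 of either group (adjusted p = 0.0589 and 0.0814 for PBS, 0.0692 and 0.0688 for IL-3). Transcripts of Tap1 hold 4.19% of the 50-base stretches of Psmb9.

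The alpha ring, which gates the entrance of the barrel, changed little. Of its 7 subunits 3 were called higher and none lower, and the median log2 fold change was 0.10, or -0.06 with library totals and 0.10 above all genes under either scaling. Without PBS replicate 1 the median was 0.15. Psma7 had the largest rise, from 108, 103 and 106 CPM with PBS to 130, 135 and 122 CPM with IL-3. Its groups did not overlap (log2 fold change 0.28, SE 0.0597, adjusted p = 0.00135, edgeR), and the call was kept without each library in turn but not with library totals (adjusted p = 0.158). Psma3 followed at 0.19, with overlapping groups (95.6 ± 6.84 to 109 ± 5.49 CPM, adjusted p = 0.0363, edgeR). Its call was lost without PBS replicate 2 or 3 or IL-3 replicate 1 or 2 (adjusted p = 0.131, 0.125, 0.138 and 0.107). The third subunit called higher, named after its values were seen, was Psma2 (0.18, adjusted p = 0.024), and its call was lost without PBS replicate 1 or 2 or IL-3 replicate 2 or 3 (adjusted p = 0.0676, 0.0809, 0.116 and 0.0626).

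The lowest values of the alpha ring were not called. Psma5 was at 48.4 ± 1.5 with PBS and 47.1 ± 3.06 CPM with IL-3 (-0.04, adjusted p = 0.729, edgeR), and Psma1 was at 111 ± 2.37 and 114 ± 4.01 CPM (0.04, adjusted p = 0.611). The level of Psma5 depends on how reads were divided between copies, since 659 of the 1319 stretches of 50 bases in its transcripts occur under other symbols.

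In the constitutive beta ring 1 of 7 subunits was called higher and 1 lower, near the 18.0% and 20.2% of all genes tested. The median log2 fold change was 0.06, or -0.10 with library totals. This median was 0.03 without PBS replicate 1 and 0.11 without PBS replicate 2. With library totals none of the 7 was higher and 3 were lower, Psmb1, Psmb5 and Psmb6. The subunit called higher was Psmb3, a structural subunit without a catalytic site, at 107, 108 and 108 CPM with PBS and 129, 123 and 116 CPM with IL-3. The groups were apart (0.18, SE 0.0589, adjusted p = 0.0213, edgeR). The call was lost without PBS replicate 1 or 2 or IL-3 replicate 1 or 2 (adjusted p = 0.0572, 0.0577, 0.102 and 0.0722). Psmb2 had a value of 0.17 (adjusted p = 0.0553) and Psmb1 of -0.08 (adjusted p = 0.381), and neither was called. The value of Psmb1 with library totals was -0.24 (adjusted p = 0.00643). Summed over the 14 constitutive core subunits, the level was 1532 ± 38.4 CPM with PBS and 1603 ± 31.6 CPM with IL-3.

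The regulatory particle held most of the rises. In the base, whose ATPases unfold substrates, 3 of 9 subunits were called higher and none lower (median log2 fold change 0.16, or -0.005 with library totals), and in the lid 5 of 8 were called higher and none lower (median 0.21, or 0.05 with library totals). Relative to all genes, the medians were 0.16 and 0.21 under either scaling. The summed level of the 17 subunits was 1182, 1172 and 1182 CPM with PBS and 1328, 1289 and 1287 CPM with IL-3, with no overlap. None of these 8 calls was kept with library totals, where 2 of the 17, the ATPase Psmc1 and the lid subunit Psmd8, were lower.

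The 2 highest subunits of the base were ATPases. Psmc5 was at 30.3, 37.1 and 33.1 CPM with PBS and at 44.6, 42.7 and 43.2 CPM with IL-3. No library overlapped the other group (0.38, SE 0.0881, adjusted p = 0.00294, edgeR). Psmc4 went from 57.9 ± 2.61 to 71.6 ± 1.82 CPM, also without overlap (0.31, adjusted p = 0.00166, edgeR), and both calls held without each library in turn. With library totals their values were 0.22 and 0.14 (adjusted p = 0.0774 and 0.114). At the other end lay the ATPase Psmc1 (-0.07, adjusted p = 0.523) and the scaffold subunit Psmd2 (0.01, adjusted p = 0.904), neither of them called. The third ATPase called higher, Psmc6, was named after its values were seen (0.21, adjusted p = 0.0381, edgeR) and lost its call without replicate 1 or 2 of either group (adjusted p = 0.173 and 0.0892 for PBS, 0.156 and 0.071 for IL-3), by the Wald test of DESeq2 (adjusted p = 0.0527) and with the replicate number as a block (adjusted p = 0.0591).

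In the lid, Psmd12 was at 46.4, 45.3 and 47.0 CPM with PBS and at 57.9, 56.3 and 58.9 CPM with IL-3. Its 3 values within a group lay close together and the groups were apart (0.32, SE 0.0692, adjusted p = 0.0017, edgeR), and the call held without each library in turn. Psmd7, a partner of the deubiquitinase of the lid, went from 53.5 ± 5.36 to 66.4 ± 5.70 CPM without overlap (0.31, adjusted p = 0.00899, edgeR), but was not called without IL-3 replicate 2 (0.25, adjusted p = 0.062). The deubiquitinase itself, Psmd14, was at 57.6 ± 7.33 and 60.7 ± 3.17 CPM (0.07, adjusted p = 0.545). Psmd8 was the lowest of the lid, at 180 ± 2.76 and 177 ± 3.74 CPM (-0.03, adjusted p = 0.693). The other lid subunits called higher, named after their values were seen, were Psmd3 (0.26, adjusted p = 0.0103), Psmd11 (0.24, adjusted p = 0.00775) and Psmd13 (0.18, adjusted p = 0.0392). Psmd3 was not called without PBS replicate 1 (0.18, adjusted p = 0.0577), and Psmd13 was not called without PBS replicate 2 or 3 or IL-3 replicate 1 or 3 (adjusted p = 0.139, 0.0743, 0.118 and 0.11), without a filter on low counts (adjusted p = 0.0556) or by the Wald test of DESeq2 (adjusted p = 0.0662).

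Among the activators, which open the barrel in place of the regulatory particle, 1 of 5 was called, where 38.2% of all genes tested were. The called activator was Psme3, which encodes the nuclear activator PA28-gamma (ENSMUSG00000078652, chromosome 11, 101316213 to 101323537). Its PBS libraries were at 76.6, 75.1 and 71.9 CPM and its IL-3 libraries at 108, 103 and 103 CPM. The lowest IL-3 library was far above the highest PBS library, and the rise was 0.49 on the log2 scale (SE 0.0600, adjusted p = 8.00e-06, edgeR), or 1.40-fold. Psme3 was the only member to stay higher in all 13 alternative fits, and its value with library totals was 0.33. No 50-base stretch of its transcripts occurs under another symbol.

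The interferon-inducible activators Psme1 and Psme2 were not called. Psme1 was at 92.7, 97.8 and 107 CPM with PBS and at 92.9, 89.6 and 83.6 CPM with IL-3. The groups overlapped by 1 IL-3 library (-0.16, adjusted p = 0.0755, edgeR), but Psme1 was called lower with library totals (-0.32, adjusted p = 0.00275) and without PBS replicate 1 (-0.21, adjusted p = 0.0385). Psme2, its partner in the same ring, was at 84.7 ± 10.4 and 86.3 ± 2.37 CPM (0.03, adjusted p = 0.829). Psme2b, of which 69.3% of the 50-base stretches occur under other symbols, chiefly Psme2, was at 6.63 ± 1.31 and 5.97 ± 0.472 CPM (-0.16, adjusted p = 0.554). Psme4, the large activator of the nucleus, had a value of -0.02 (adjusted p = 0.85), and the inhibitor Psmf1 a value of 0.01 (adjusted p = 0.968). The median of the 5 activators was -0.02 and changed sign without IL-3 replicate 2 (0.02), while leaving out IL-3 replicate 3 gave -0.07 and leaving out PBS replicate 2 or 3 gave -0.06 or -0.05.

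Of the 7 assembly chaperones, 2 were called higher and 1 lower, with a median log2 fold change of 0.11, or -0.05 with library totals. The median moved with single libraries, to 0.04, 0.01 and 0.18 without PBS replicate 1, 2 and 3 and to 0.08 and 0.06 without IL-3 replicate 1 and 3. The chaperones of the base went separate ways. Psmd5 was at 34.5, 34.1 and 34.6 CPM with PBS and at 41.9, 45.6 and 39.7 CPM with IL-3 (0.30, SE 0.0823, adjusted p = 0.00885, edgeR). Psmd9 was at 34.9, 36.1 and 38.7 CPM with PBS and at 27.7, 31.3 and 29.3 CPM with IL-3 (-0.31, SE 0.0879, adjusted p = 0.0107, edgeR). Neither gene had overlapping groups. The call of Psmd9 held in all 13 alternative fits but missed an adjusted p of 0.01, whereas that of Psmd5 was lost without IL-3 replicate 2 (0.24, adjusted p = 0.0663) and with library totals (adjusted p = 0.237). Psmd10, also a chaperone of the base, was at 18.7 ± 4.08 and 20.3 ± 2.07 CPM (0.11, adjusted p = 0.577). For Psmd9, 24.9% of the 50-base stretches occur under other symbols.

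The chaperones that build the alpha ring had lower levels. Psmg2 went from 15.6 ± 0.625 to 19.2 ± 0.564 CPM and was called higher at an adjusted p close to the threshold (0.30, adjusted p = 0.0392, edgeR). That call was lost in 10 of 13 alternative fits, with adjusted p from 0.0528 to 0.105 when a single library of either group was left out and of 0.0587 with the replicate number as a block. Psmg1, with which Psmg2 pairs, was not called (0.17, adjusted p = 0.393), nor were Psmg3 (-0.01, adjusted p = 0.961) and Psmg4 (-0.18, adjusted p = 0.298), which pair with each other. With library totals Psmg4 was called lower (-0.35, adjusted p = 0.0489).

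The core subunits known from other tissues were low. Psma8, which replaces an alpha subunit in male germ cells, had 1 to 9 counts in a library (0.0776 to 0.789 CPM) and did not pass the filter on low counts. Its values lay around the level of 3 counts, 0.233 to 0.296 CPM, that a reading of 0 would still allow. Psmb11, the subunit of thymic epithelial cells, was at 3.67 ± 0.788 CPM with PBS and 4.96 ± 0.846 CPM with IL-3 and was not called (0.44, adjusted p = 0.14, edgeR). Psmc3ip, which is no subunit, was at 2.81 ± 0.693 and 2.18 ± 0.571 CPM (-0.34, adjusted p = 0.378).

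Levels of different subunits were compared per kb of the principal transcript, the longest where a gene had several, as CPM per kb averaged over the PBS libraries. The alpha ring spanned 33.6 to 116 and the constitutive beta ring 43.3 to 179 CPM per kb, while the base spanned 22.9 to 48.7 and the lid 23.6 to 117 CPM per kb. The lower end of the lid was Psmd11, which would be at 41.3 CPM per kb over its shorter principal transcript. The immunosubunits lay at 22.6 for Psmb9, 32.0 for Psmb10 and 60.4 for Psmb8 with PBS, and at 9.98, 19.5 and 43.4 with IL-3. Psmb5, by comparison, was at 138 with PBS and 131 with IL-3, so that Psmb8 lay below its counterpart in both groups. The assembly chaperones lay at 7.83 to 24.8 CPM per kb with PBS. The lengths come from the annotation, not from these libraries, and cDNA that was amplified whole can cover long and short transcripts unevenly.

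**Figure D4:**
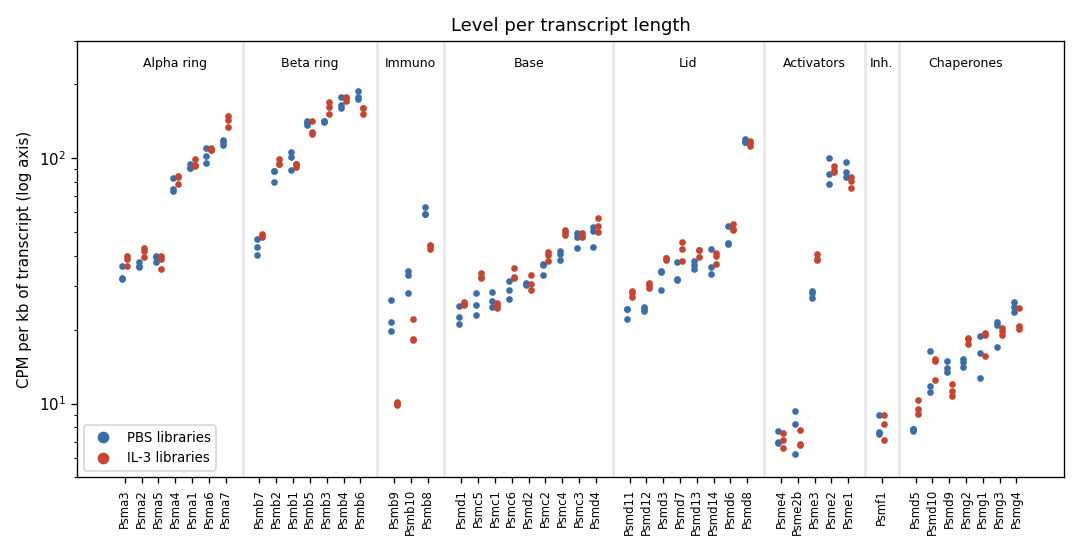
Level of each proteasome gene in CPM per kb of transcript (y axis, log scale), with 1 point for each of the 3 PBS libraries (blue) and 3 IL-3 libraries (red) and genes ordered by level within groups of roles. Core subunits reach the highest levels, at 179 CPM per kb with PBS in the beta ring, and among the immunosubunits Psmb9 is the lowest at 22.6 with PBS and 9.98 with IL-3.

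Genes that work with the proteasome, and genes of the interferon response, were read from lists in the same edgeR fit. The lists were drawn up with earlier results of these data known. Over all genes tested 18.0% were called higher and 20.2% lower, or 10.2% and 30.2% with library totals. Of 9 proteasome partners tested, such as ubiquitin receptors, deubiquitinases and maturation factors, 1 was higher and 1 lower, with a median log2 fold change of 0.004, or -0.16 with library totals, where none was higher and 2 were lower. The one called higher was Ube3c, a ubiquitin ligase bound to the proteasome (0.42, adjusted p = 0.0318), and the one called lower was Ecpas, an adaptor of the proteasome (-0.23, adjusted p = 0.046). The call of Ube3c was lost without PBS replicate 1 or IL-3 replicate 1 or 2 (adjusted p = 0.143, 0.0588 and 0.117), with library totals (0.26, adjusted p = 0.192) and by the Wald test of DESeq2 (adjusted p = 0.0523). The call of Ecpas was lost without PBS replicate 1 or 3 or IL-3 replicate 1 or 2 (adjusted p = 0.195, 0.0506, 0.168 and 0.12), with the replicate number as a block (adjusted p = 0.0684), by the Wald test of DESeq2 (adjusted p = 0.0687), by limma-voom (adjusted p = 0.0514) and without a filter on low counts (adjusted p = 0.0503). Paaf1 was not found under that symbol.

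The NFE2L1 route, which switches on proteasome genes when proteasome activity falls, had 6 of 10 tested genes higher and 2 lower (median 0.24, or 0.07 with library totals). Maff, a small partner protein of the NFE2L factors, was at 9.16, 9.73 and 5.73 CPM with PBS and at 39.6, 37.4 and 29.7 CPM with IL-3 (2.11, adjusted p = 4.45e-08, edgeR). Ngly1, the enzyme that strips sugars from NFE2L1, was at 48.0, 49.9 and 52.7 CPM with PBS and at 102, 99.8 and 104 CPM with IL-3 (1.02, adjusted p = 3.00e-09, edgeR). Both stood clear of the PBS libraries. Ddi2, the protease that cuts NFE2L1, was lower (-0.34, adjusted p = 0.00201), as was Nfe2l2, the related stress factor (-0.26, adjusted p = 0.0152). The call of Nfe2l2 was lost without PBS replicate 2 or IL-3 replicate 3 (adjusted p = 0.0984 and 0.0737). The other genes called higher, named after their values were seen, were Nfe2l1 itself (0.26, adjusted p = 0.0116), Mafk (0.58, adjusted p = 1.37e-05), Ufd1 (0.24, adjusted p = 0.0346) and Nploc4 (0.23, adjusted p = 0.0165, all edgeR). With library totals Mafk kept its call, while Nfe2l1, Ufd1 and Nploc4 were not called (adjusted p = 0.356, 0.533 and 0.485). Nfe2l3 did not pass the filter. With library totals 3 genes of this list were higher and 4 lower.

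In the list of ubiquitin genes, activating enzymes and shuttle factors, 5 of 12 were higher and none lower (median 0.19, or 0.03 with library totals, where none was higher and 3 were lower). Among them was Uba6, an activating enzyme (0.26, adjusted p = 0.0383, edgeR). The call of Uba6 was lost without replicate 1 or 2 of either group (adjusted p = 0.128 and 0.102 for PBS, 0.148 and 0.106 for IL-3), with the replicate number as a block (adjusted p = 0.0635) and by the Wald test of DESeq2 (adjusted p = 0.067). Also called higher, and named after their values were seen, were the activating enzyme Uba1 (0.25) and the shuttle factor Rad23b (0.19), of which Rad23b lost its call without PBS replicate 2 or IL-3 replicate 2 or 3 (adjusted p = 0.087, 0.0677 and 0.0548).

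For class I peptide loading, 2 of 12 genes were higher and 3 lower (median 0.02, or -0.14 with library totals, where none was higher and 5 were lower). The counts under TMM lay near the 18.0% and 20.2% of all genes tested. The 3 called lower were Tap2 and Tap1, given above, and B2m, the light chain of class I molecules, which was at -0.38 (adjusted p = 5.84e-05, edgeR). The higher ones were the chaperones Pdia3 (0.21, adjusted p = 0.003) and Calr (0.17, adjusted p = 0.0479), and neither was called with library totals. Calr also lost its call without PBS replicate 1 or 3 or IL-3 replicate 1 or 2 (adjusted p = 0.14, 0.208, 0.174 and 0.0911). The class I heavy chains H2-K1 and H2-D1, read after their values were seen, were not called, at 0.08 and 0.01. With library totals both turned below 0, to -0.08 for H2-K1, which was not called (adjusted p = 0.233), and to -0.15 for H2-D1, which was called lower (adjusted p = 0.0105).

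In the list of interferon-stimulated genes and their regulators, 2 of 15 tested genes were higher and 5 lower (median -0.45, or -0.61 with library totals, where 1 was higher and 9 were lower). Irf8, a factor of myeloid cells, was at 37.0, 34.7 and 33.4 CPM with PBS and at 10.2, 11.6 and 10.3 CPM with IL-3 (-1.71, adjusted p = 3.14e-09, edgeR). Gbp2, a guanylate-binding protein induced by interferon gamma, was next among the genes called lower, at -0.63 (adjusted p = 0.00417). Of the genes called higher, Ifngr2, a chain of the interferon gamma receptor, was at 0.84 (adjusted p = 7.56e-09) and Irf9 at 0.36 (adjusted p = 0.0353), and the groups of Irf9 overlapped. The call of Irf9 was lost without replicate 1 or 2 of either group (adjusted p = 0.14 and 0.0691 for PBS, 0.0583 and 0.254 for IL-3) and with library totals (0.20, adjusted p = 0.267). The other genes called lower, named after their values were seen, were Ifngr1, the other chain of that receptor (-0.51), the GTPase Irgm1 (-0.51) and the factor Irf1 (-0.45), and Irgm1 was not called without IL-3 replicate 3 (adjusted p = 0.0586). Ifit1 and Ifit3 did not pass the filter.

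**Figure D5:**
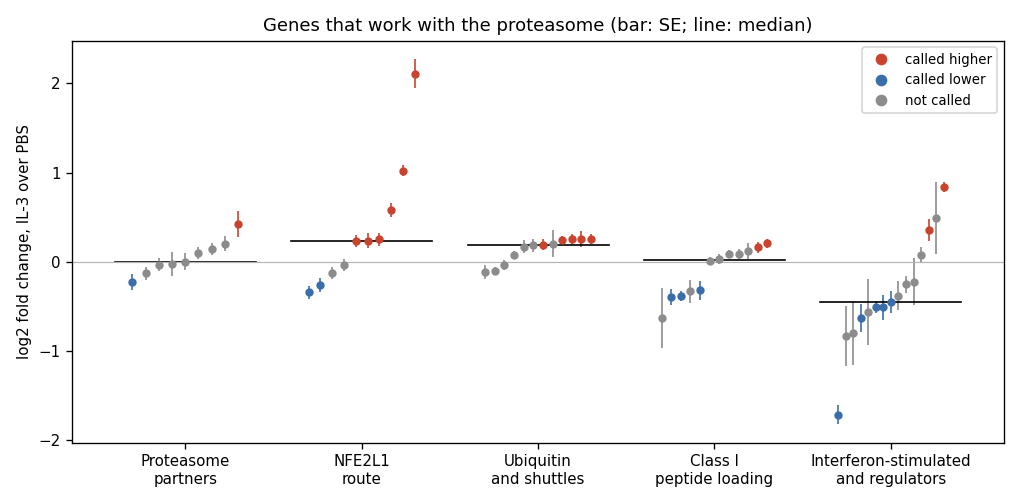
Log2 fold change (IL-3 over PBS, y axis) of the tested genes of 5 lists of genes that work with the proteasome or belong to the interferon response. Bars show the SE, colour shows the call and a black line shows the median of each list under TMM scaling. Maff at 2.11 and Ngly1 at 1.02 stand highest in the NFE2L1 route and Irf8 at -1.71 lowest among the interferon genes, while the medians of the partners and of the class I genes lie near 0 and fall to -0.16 and -0.14 with library totals.

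Markers of cell types that the enriched cultures could hold also differed between the groups, in both directions. Over all genes tested 18.0% were called higher and 20.2% lower. Of 10 monocyte and macrophage markers 7 were lower and 2 higher, and their summed level was 11651 to 12561 CPM with PBS and 6095 to 6704 CPM with IL-3. Lyz2 made up the greater part, at 10456 CPM on average with PBS and 5348 CPM with IL-3, and Adgre1 and Ly6c2 were the markers called higher. Of 9 basophil markers 6 were higher and 2 lower, with a summed level of 10726 to 11985 CPM with PBS and 15729 to 15921 CPM with IL-3, and Fcer1a and Cebpa were the lower ones. Mcpt8 and Prss34, which define basophils, averaged 3066 and 5615 CPM with PBS and 5895 and 5661 CPM with IL-3. The mast cell list (4 higher of 6 tested) summed to 366 to 398 CPM with PBS and 733 to 825 CPM with IL-3. The dendritic cell list (1 lower of 7, the class II gene H2-Ab1) summed to 330 to 387 CPM and 228 to 254 CPM, and its marker Cd209a was at 0 in all libraries. The neutrophil list had 3 higher and 1 lower of 7, the eosinophil list 1 higher and 3 lower of 5, the NK and T cell list 1 higher of 2 with Gzma at 0, and the erythroid list 2 lower of 4 with Alas2 at 0. The part of these cells in the levels of the immunosubunits, of Psme3 and of the genes of the interferon and class I lists was not tested.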

How the data were processed

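The authors deposited raw read counts per gene symbol in a single table of 6 libraries, 3 from PBS-treated and 3 from IL-3-stimulated cultures, and no column was left unused (0). According to the methods, poly(A) RNA bound to beads was turned into cDNA and amplified as a whole transcriptome. The processing notes name cutadapt 3.4, Bowtie2 and the build GRCm39, whereas the methods name reference RNA of GRCm38, and the sources used here do not give the handling of reads that map to several genes, of PCR copies or of strand. The labels name an RNA column kit and the methods direct lysis.

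The raw counts entered edgeR 4.0.16 under R 4.3.3, with filterByExpr, TMM, the quasi-likelihood F test and no term but the group. The methods name only the TCC package for normalization and testing, and the filter, the test and the single term were chosen here. P-values were adjusted by Benjamini-Hochberg over all genes tested, tests were two-sided, and the SE was derived from F. The pipeline was tested on simulated counts. Coordinates, transcript lengths and shared 50-base stretches came from GENCODE M21 (GRCm38) and promoter windows from RefSeq. Each stretch shared with another symbol was counted on either strand. A level of 3 counts was taken as the limit of a reading of 0, and it covers counting error only.

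Alternatives were size factors and the Wald test of DESeq2 1.42.0, limma-voom (limma 3.58.1), library totals, no filter, a filter of 1 CPM in 3 libraries, a replicate block, leaving out each library, and an adjusted p of 0.01. Replicate numbers did not pair the libraries, since deviations of same-numbered libraries correlated at -0.00869, -0.0162 and -0.0224. No 2 libraries of a group agreed within sampling noise (chi-square per degree of freedom 2.75 to 4.69). Named were the immunosubunits and the subunits they replace, activators, inhibitor, chaperones, the 2 highest and 2 lowest members of each ring, base and lid, untested members, and the 2 highest and 2 lowest called genes of each list. The members, lists and rules were chosen with earlier results of these data known. Some genes that this rule selects are left out of the text. Protein sequences were not used here.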

Additional observations from a re-analysis of the deposited data

How the results depend on the processing

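The count of members called moved most with the scaling. With library totals in place of TMM, 1698 genes of all tested were higher and 5030 lower, 1 proteasome member was higher and 11 were lower, and the medians were -0.0637 for the alpha ring, -0.0995 for the beta ring, -0.882 for the immunosubunits, -0.00497 for the base, 0.0477 for the lid, -0.188 for the activators and -0.0500 for the chaperones. Members that were not called turned from above to below 0 under that scaling, at -0.12 for Psma1, -0.0637 for Psma4, -0.0786 for Psma6, -0.0995 for Psmb4, -0.00336 for Psmb7, -0.00497 for Psmc2, -0.106 for Psmc3, -0.00397 for Psmd1, -0.149 for Psmd2, -0.0351 for Psmd4, -0.0307 for Psmd6, -0.087 for Psmd14, -0.135 for Psme2, -0.153 for Psmf1 and -0.0500 for Psmd10. By limma-voom Psmf1 was at -0.00305, and without a filter Psmg3 was at 0.00176. At an adjusted p below 0.01, 8 members were higher and 3 lower. Leaving out 1 library at a time gave 8 to 12 members higher, a median of 0.0781 to 0.153 for the alpha ring and of -0.0739 to 0.0234 for the activators, and ranges that cross 0 for Psma5 (-0.0785 to 0.0105), Psmd2 (-0.0441 to 0.0608), Psme2 (-0.0523 to 0.124), Psme4 (-0.0739 to 0.0300), Psmf1 (-0.0736 to 0.0981) and Psmg3 (-0.109 to 0.0539). Without PBS replicate 1, calls were gained for Psmd1 (0.23, adjusted p = 0.0228), Psmd6 (0.22, adjusted p = 0.0331) and Psme1. The replicate block gave 13 members higher and 5 lower and ended the calls of Psmc6 (adjusted p = 0.0591) and Psmg2 (adjusted p = 0.0587) among the members and of Uba6 (adjusted p = 0.0635) and Ecpas (adjusted p = 0.0684) in the lists. For the ratios, pairing by number left the differences at -0.40, -0.97 and -0.88, with an exact p of 0.25 each, the smallest that 3 pairs allow. Psmb8, Psmb9, Psmb10, Psmd9 and Psme3 kept their calls in all 13 alternative fits, although Psmd9 missed the adjusted p of 0.01. Adding the copies of Psmb5 was chosen after the data were seen. Why these values moved with the scaling or with a library was not tested. Depth was 10537540 counts or more, and the members with the fewest counts in a library were Psma8 (1 to 9), Psmc3ip (16 to 41), Psmb11 (37 to 76) and Psme2b (59 to 95).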
